A study of Mus musculus with 12 samples.

Results

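The endothelial cells of the mouse fetal gonad were 1916 of the 83513 cells kept from 103730 barcodes, 2.29% of the kept cells. Kept cells had at least 1000 detected genes and at most 10% mitochondrial UMIs (unique molecular identifiers, each counting a captured RNA molecule). A kept cell was taken as endothelial when Cdh5, Tie1, Emcn and Egfl7 together held at least 5 UMIs, with at least 1 from Cdh5 or Tie1, and when the germ cell genes Dppa5a, Pou5f1, Ddx4 and Dazl together held fewer than 10. Gonads were collected from embryos at E12 (23 ± 3 tail somites) on a mixed B6CBAF1/JRj background, dissociated with trypsin and profiled with the droplet-based 3' method of 10x Genomics. There were 12 libraries, 2 from XX and 2 from XY gonads of each of 3 genotypes. These were WT, -KTS KO (homozygous for an allele that no longer makes the Wt1 splice variants without the KTS tripeptide) and +KTS KO (homozygous for an allele that no longer makes the variants with it). Both alleles are germline changes, so every cell of the embryo carried them, and the -KTS KO libraries pooled gonads of several embryos. The 3' counts do not separate the splice variants. WT gave 896 endothelial cells (413 XX and 483 XY), -KTS KO 322 (144 XX and 178 XY) and +KTS KO 698 (377 XX and 321 XY).

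Endothelial cells line the blood vessels. In the fetal gonad they arrive from the vessels of the adjoining mesonephros, branch among the somatic and germ cells, and in the XY gonad build a large surface artery. Sprouting is led by tip cells that answer VEGF, Notch signalling through Dll4 restrains their neighbours and favours an arterial fate, and veins, lymphatic vessels and sinusoids each carry a gene programme of their own.

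Each library held between 108111924 and 147968666 UMIs in all its barcodes, and the endothelial cells of a library held from 1753072 UMIs (XX -KTS KO replicate 2) to 5529955 (XY WT replicate 1). Endothelial cells had a median of 18454 UMIs and 4147 genes, against 13764 UMIs and 3644 genes in the other kept cells, and the endothelial median was 16906 UMIs in WT, 21820 in -KTS KO and 19340 in +KTS KO. Of 102389 distinct barcode sequences, 1329 occurred in 2 or more libraries, with 6 to 46 shared between any pair (at most 0.451%), and 1 belonged to endothelial cells in more than 1 library. Xist was at 319 to 512 CPM in the endothelial cells of the XX libraries and at 0 to 0.20 in those of the XY libraries, as labelled. Wt1 itself was at 34.2 ± 4.16 CPM in WT, 31.8 ± 10.9 in -KTS KO and 39.9 ± 22.8 in +KTS KO endothelial cells (SD, n = 4 libraries), below its mean in the other kept cells of the same libraries (175, 218 and 208 CPM). CPM are UMIs per 1000000 endothelial UMIs of a library after TMM scaling, and the other kept cells were scaled in the same way among themselves. The labels do not say that replicates came from separate litters, so the p-values below measure the spread between libraries, and a sum over cells cannot tell a change in all cells from a change in the number of cells that express a gene.

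The label was checked against endothelial genes that the rule had not used. Pecam1, an adhesion molecule of vessel walls, was at 293, 372 and 329 CPM in WT, -KTS KO and +KTS KO endothelial cells and at 19.6, 19.6 and 9.95 CPM in the other kept cells. Cldn5, a tight junction protein, was at 579, 588 and 465 CPM against 4.12, 1.89 and 1.16, and the VEGF receptor Kdr was at 306, 303 and 310 CPM against 11.97, 12.4 and 8.50. The marker count had a median of 43 UMIs, and 95.9% of the cells had at least 10. Near the threshold, 18 cells had 5 marker UMIs and 19 had 6, while 32 kept cells with 4 and 59 with 3 met the other conditions and stayed outside. At least 3 of 10 further endothelial markers were detected in 26.4% of the cells with 3 or 4 marker UMIs, in 78.4% of those with 5 or 6, in 98.6% of those with 7 to 19 and in 100% of those with 20 or more. The rule genes served only to choose cells, and their levels are given without a test. Cdh5 was at 355, 428 and 400 CPM, Tie1 at 79.4, 99.7 and 98.8, Emcn at 565, 615 and 655, and Egfl7 at 1151, 1229 and 1196 in WT, -KTS KO and +KTS KO.

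Endothelial cells made up a smaller share of -KTS KO gonads than of WT gonads. The share was 2.24% and 3.51% of kept cells in the XX WT libraries and 3.17% and 2.97% in the XY WT libraries. Shares in -KTS KO were lower, with 1.07% and 1.44% for XX replicates and 1.58% and 1.39% for XY replicates, so that every -KTS KO library lay below every WT library. In +KTS KO it was 2.88% and 2.05% in XX and 1.51% and 2.52% in XY, which overlapped both other genotypes. The means were 2.97% ± 0.537 in WT, 1.37% ± 0.217 in -KTS KO and 2.24% ± 0.595 in +KTS KO (SD, n = 4 libraries each). Exact 95% binomial intervals, which cover counting error only, ran from 0.804% to 1.39% in the library with the smallest share and from 3.10% to 3.97% in that with the largest. The difference between -KTS KO and WT was -1.60 percentage points (exact permutation of the 8 libraries, two-sided, 70 splits, p = 0.0286, which is the lowest value possible here), with -1.63 in XX and -1.58 in XY. It was -0.733 points between +KTS KO and WT (exact permutation p = 0.114) and -0.871 between -KTS KO and +KTS KO (exact permutation p = 0.0571). XX WT and XY WT differed by -0.191 points (exact permutation, two-sided, 6 splits, p = 1), where 2 libraries against 2 cannot go below 0.333. The sign of this difference turned without XX WT replicate 1 (0.445 points) and with each cell thinned to 5000 UMIs (0.00480). Leaving out any of the 4 -KTS KO libraries gave an exact permutation p = 0.0571 for -KTS KO against WT, which no longer passed 0.05, at differences of -1.674 to -1.503 points. Leaving out any of the 4 WT libraries kept it at 0.0286. In each case every -KTS KO library left lay below every WT library left. The groups were then unequal in size, so the contrast between these p-values is no result about single libraries. These are shares of the cells that survived dissociation and the filter, so fewer endothelial cells and more of the other cells cannot be told apart.

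**Figure D1:**
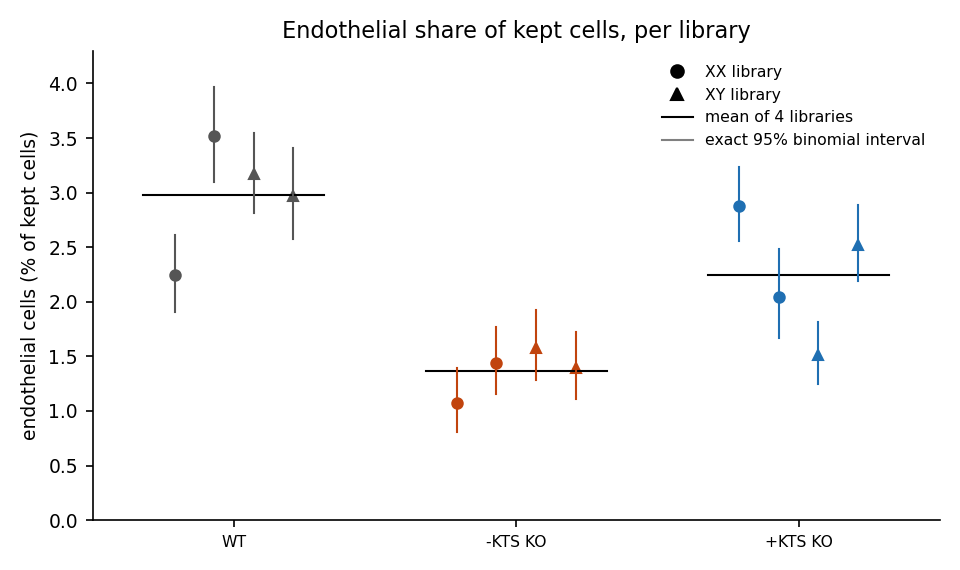
Endothelial cells as a percentage of kept cells (y axis, linear from 0) in each of the 12 libraries, by genotype and sex (x axis). Points are libraries with exact 95% binomial intervals as bars and horizontal lines are genotype means. The 4 -KTS KO libraries lie between 1.07% and 1.58%, below the 4 WT libraries at 2.24% to 3.51%, and the +KTS KO libraries at 1.51% to 2.88% overlap both.

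More genes were called in -KTS KO than in +KTS KO endothelial cells against the same WT libraries. Of 11161 genes tested with edgeR's quasi-likelihood test on UMIs summed over the endothelial cells of each library, 229 were higher in -KTS KO than in WT (2.05%) and 181 were lower (1.62%) at a false discovery rate of 0.05. In +KTS KO against WT, 12 were higher (0.108%) and 27 lower (0.242%). At an unadjusted p under 0.05 in the same test there were 2078 genes for -KTS KO and 1532 for +KTS KO against WT. The counts at the false discovery rate therefore do not measure how far each genotype differed from WT. These comparisons share the WT libraries, and the direct test of -KTS KO against +KTS KO called 245 genes higher (2.20%) and 287 lower (2.57%). The number of calls in each of these comparisons changed widely with the library left out. RNA released from other cells reaches every droplet, so each call was also set against the level in the other kept cells of the same libraries. Of the 229 genes that rose in -KTS KO, 207 were at least as high in the endothelial cells as in the other cells of the higher group (90.4%). Of the 181 that fell, 89 were (49.2%). Among all tested genes with a fold change of the same sign these shares were 58.8% and 36.2%. In +KTS KO against WT these were 5 of 12 and 7 of 27 (41.7% and 25.9%, against 49.3% and 39.3% of tested genes). In -KTS KO against +KTS KO they were 193 of 245 and 125 of 287 (78.8% and 43.6%, against 55.2% and 39.5%). This compares levels and not changes. The direction in the other cells was also compared, by the sign of the difference in means alone. Of the 207 rises, 114 had a higher mean in the other -KTS KO cells too (55.1%), as did 49.8% of all tested genes with a fold change above 0 and a level at or above the other cells. Of the 89 falls, 58 had a lower one (65.2%, against 59.5%). Both shares are near those of the tested genes and are no result about these calls. Of the calls below the level of the other cells, 21 of 22 rises and 89 of 92 falls had the same sign there (95.5% and 96.7%, against 76.7% and 62.2% of tested genes). The part of RNA from other cells in these calls was not tested. Values in the other cells are given beside many of the named genes. Doublet calling marked a number of cells set in advance by the kept cells of a library (3.95% to 7.66% of them). It marked 10.2% of WT, 7.76% of -KTS KO and 15.5% of +KTS KO endothelial cells, which are no measured rates. At least 5 UMIs of 10 genes of somatic, perivascular, immune and megakaryocyte cells were held by 17.2%, 13.04% and 15.3%. Single libraries ranged from 15.1% to 18.9% in WT, 4.44% to 25.9% in -KTS KO and 7.77% to 27.8% in +KTS KO. The genes named below were chosen by a rule, as the 10 largest changes in each direction among called genes with at least 20 CPM in the higher group, at least as high there as in the other cells and with no overlap between libraries, or as called members of gene lists (up to 4 per list).

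**Figure D2:**
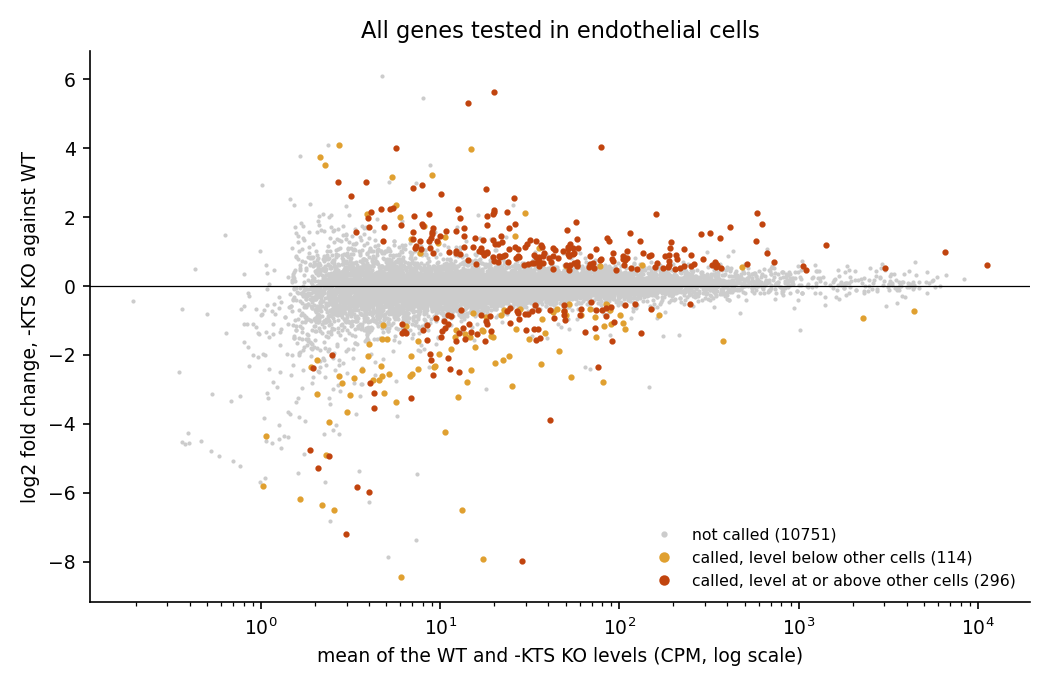
Log2 fold change in -KTS KO against WT (y axis) against the mean of the WT and -KTS KO levels in CPM (x axis, log scale) for the 11161 genes tested. Grey points are the 10751 genes not called, and the 410 called genes are split into 296 at or above the level of the other kept cells and 114 below it.

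Among the genes named by the rule, those that rose most in -KTS KO endothelial cells included a secreted peptide, a surface receptor and both subunits of a potassium channel. Nts, the precursor of the peptide neurotensin, was at 10.3 and 12.7 CPM in the XX WT libraries and at 5.20 and 7.15 in the XY WT libraries. It was at 68.9, 118, 196 and 215 CPM in the XX and then the XY -KTS KO libraries and at 2.52, 4.18, 2.05 and 8.40 in the +KTS KO libraries. Every -KTS KO library was above every other library (log2 fold change against WT 4.03 ± 0.27, SE, adjusted p = 1.16e-05). Few cells carried much of this, since a single cell held 63 of 134 Nts UMIs in XX -KTS KO replicate 1, 70 of 199 in XX replicate 2, 234 of 486 in XY replicate 1 and 101 of 432 in XY replicate 2. With the UMIs of the top cell of each library taken out, Nts was at 36.5 to 164.5 CPM in -KTS KO and at 3.90 to 11.3 in WT, so the libraries still did not overlap. Tnfrsf9, the co-stimulatory receptor 4-1BB of lymphocytes, was at 2.35, 3.26, 0.186 and 0 CPM in the WT libraries and at 17.99, 15.4, 80.4 and 40.3 in the -KTS KO libraries (adjusted p = 1.59e-04), with at most 2.90 in +KTS KO. Kcnj8, the pore-forming subunit of an ATP-sensitive potassium channel, was at 0.588, 0.686, 0.743 and 0 CPM in WT and at 9.25, 11.9, 26.3 and 64.6 in -KTS KO (adjusted p = 6.81e-05), with at most 1.17 in +KTS KO. Abcc9, the regulatory subunit of the same channel and its neighbour on chromosome 6 (16248 bases apart, same strand), rose from 4.11 ± 0.889 to 31.7 ± 24.4 CPM (log2 fold change 2.83 ± 0.38, adjusted p = 0.00149). XY -KTS KO replicate 2 was the highest library for Nts, Kcnj8 and Abcc9, while XY -KTS KO replicate 1 was the highest for Tnfrsf9. Without any 1 library the calls of these 4 genes remained, with adjusted p at most 0.0129.

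**Figure D3:**
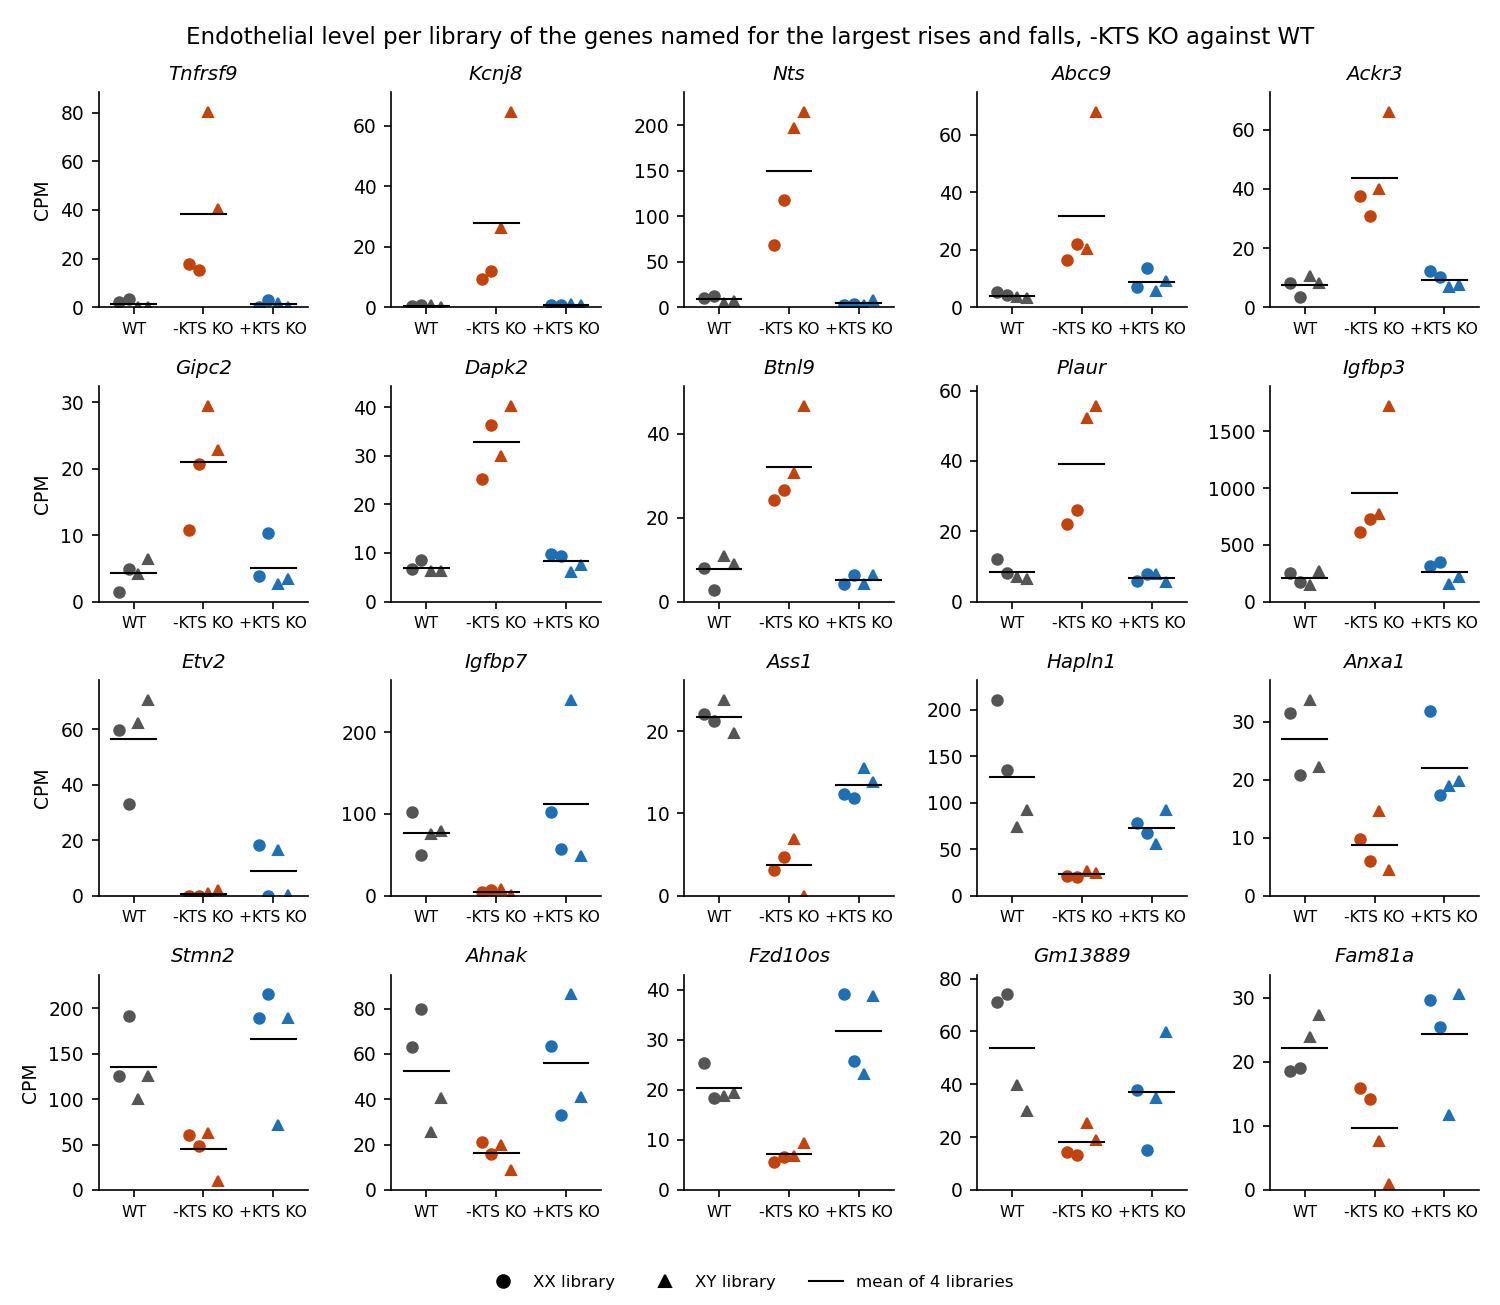
CPM in endothelial cells (y axis, linear from 0, one panel per gene) for the 10 rises and 10 falls that the rule names by size in -KTS KO against WT, with circles for XX libraries, triangles for XY libraries and lines for the means of 4. Nts lies at 68.9 to 215 CPM in -KTS KO and at 5.20 to 12.7 in WT, and Igfbp7 at 0.497 to 8.49 in -KTS KO and at 49.7 to 103 in WT.

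These rises were also seen as shares of cells at equal depth. After each cell was thinned to 5000 UMIs, Tnfrsf9 was detected in 1.15% of WT, 13.3% of -KTS KO and 0.295% of +KTS KO endothelial cells (2.68%, 35.4% and 2.01% before thinning), and in 0.217%, 0.179% and 0.387% of cells of the same genotypes without any UMI of the 4 markers. Kcnj8 was detected in 0.115%, 11.9% and 0.295% of thinned endothelial cells (1.00%, 25.2% and 1.72% before), against 0.331%, 0.473% and 1.47% of marker-free cells. Its WT and +KTS KO shares were below those of the marker-free cells, which can include cells that express it. Nts was detected in 4.02%, 16.3% and 2.22% (9.71%, 25.8% and 4.58% before), against at most 0.0504% of marker-free cells. The thinned sets held 870, 294 and 677 endothelial cells, and 26, 28 and 21 shallower cells were left out. Kcnj8 and Abcc9 also mark pericytes, the contractile cells that wrap capillaries. Of the 81 -KTS KO endothelial cells with a Kcnj8 UMI, 47 had an Abcc9 UMI (58.0%, against 27.8% of the cells without Kcnj8). A UMI of Rgs5, Cspg4 or Pdgfrb was held by 3 of the 81 (3.70%, against 5.81% of the cells without Kcnj8). These 3 pericyte genes were at no more than 3.08, 0.808 and 1.99 CPM in any -KTS KO library. Of the 83 -KTS KO cells with Nts, 44 had Tnfrsf9, against 29.3% of the cells without Nts. The pairs share cells and depth, so these counts are descriptions.

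Further leading rises were Ackr3, Gipc2, Dapk2, Btnl9, Plaur and Igfbp3. Ackr3, a scavenger receptor for the chemokine Cxcl12, was at 8.24, 3.60, 10.6 and 8.10 CPM in the WT libraries and 37.5, 30.9, 40.0 and 66.1 in the -KTS KO libraries (log2 fold change 2.55 ± 0.24, adjusted p = 1.21e-04). In the other kept cells Ackr3 was at 2.46 CPM in WT and 9.46 in -KTS KO. After thinning it was detected in 4.14% and 18.4% of endothelial cells, against 1.26% and 4.81% of marker-free cells. Plaur, the receptor of the protease urokinase, was at 12.1, 8.06, 7.06 and 6.43 CPM in WT and 22.1, 26.1, 52.1 and 55.7 in -KTS KO (2.14 ± 0.18, adjusted p = 6.18e-05). Plau, urokinase itself, rose from 8.28 ± 2.34 to 23.1 ± 14.5 CPM (1.39 ± 0.33, adjusted p = 0.0332), with 44.7 in XY -KTS KO replicate 2. The ligand-binding protein Igfbp3, which holds insulin-like growth factors, was the most abundant of the leading genes. It was at 253, 172, 143 and 273 CPM in WT, 614, 724, 771 and 1726 in -KTS KO and 311, 346, 151 and 218 in +KTS KO (2.12 ± 0.26, adjusted p = 0.00106), and was detected in 37.4% of WT and 79.6% of -KTS KO cells after thinning, against 5.86% and 7.99% of marker-free cells. Btnl9 rose from 7.67 ± 3.51 to 32.1 ± 10.1 CPM, the calcium-dependent kinase Dapk2 from 6.96 ± 1.10 to 32.9 ± 6.68 and Gipc2 from 4.24 ± 2.08 to 20.99 ± 7.75. The calls of Ackr3, Plaur, Igfbp3, Btnl9, Dapk2 and Gipc2 remained in all 8 fits without 1 library, where the highest adjusted p was 0.0406, for Gipc2.

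Nts and Plaur are known targets of AP-1, the Fos and Jun factors, so promoters of the named genes were searched for TGANTCA. N stands for any base, which makes this a looser form of the AP-1 site. The sequences below are 4 of the 5 promoters of named rises that held the letters TGANTCA, which read the same on both strands and so were counted once, and the capitals mark the match. Promoters were matched for 54 of 74 named genes, and they run from 250 bases before the transcription start to 50 bases after it on the gene's strand, from RefSeq on GRCm38.p6, at chr10:102490369-102490668 (minus strand) for Nts, chr4:150927749-150928048 (plus) for Tnfrsf9, chr7:24462233-24462532 (plus) for Plaur and chr7:100176420-100176719 (plus) for the channel subunit Kcne3.
Nts: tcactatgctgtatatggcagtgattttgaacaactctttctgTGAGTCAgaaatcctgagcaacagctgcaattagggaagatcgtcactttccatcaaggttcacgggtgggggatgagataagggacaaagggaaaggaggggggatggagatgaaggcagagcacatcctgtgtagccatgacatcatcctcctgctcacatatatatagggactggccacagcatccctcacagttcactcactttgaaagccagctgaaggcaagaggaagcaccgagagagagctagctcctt
Tnfrsf9: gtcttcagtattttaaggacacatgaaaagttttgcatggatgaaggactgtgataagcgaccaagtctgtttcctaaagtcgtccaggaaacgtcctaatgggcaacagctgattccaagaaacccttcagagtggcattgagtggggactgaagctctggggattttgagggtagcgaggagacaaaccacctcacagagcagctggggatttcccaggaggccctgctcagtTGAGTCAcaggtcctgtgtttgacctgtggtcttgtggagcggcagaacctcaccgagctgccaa
Plaur: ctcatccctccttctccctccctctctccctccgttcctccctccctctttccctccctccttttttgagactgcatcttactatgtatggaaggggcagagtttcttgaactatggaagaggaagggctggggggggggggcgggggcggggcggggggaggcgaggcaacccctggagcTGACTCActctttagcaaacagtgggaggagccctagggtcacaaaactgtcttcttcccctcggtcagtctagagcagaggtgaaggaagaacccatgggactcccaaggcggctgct
Kcne3: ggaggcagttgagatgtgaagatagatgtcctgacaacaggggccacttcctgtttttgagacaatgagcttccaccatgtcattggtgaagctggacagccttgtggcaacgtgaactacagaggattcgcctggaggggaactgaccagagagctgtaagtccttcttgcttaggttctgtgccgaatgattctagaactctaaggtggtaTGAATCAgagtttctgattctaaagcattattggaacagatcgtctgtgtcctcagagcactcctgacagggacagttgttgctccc
The match began 207 bases before the start in Nts, 15 in Tnfrsf9, 69 in Plaur and 37 in Kcne3. Because Nts and Plaur led to the search and count among the matches below, the shares are no test of AP-1. The motif was chosen after the values were seen. It was present in 5 of 26 promoters matched to named genes that rose in -KTS KO (19.2%, the fifth being Aldoa), in 19 of 181 promoters of all genes that rose (10.5%), in 6 of 131 of those that fell (4.58%), in 492 of 8819 of all genes tested (5.58%) and in 2565 of 32851 of all promoters (7.81%). A match is a description of these letters, and binding was not measured.

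Among the genes named by the rule, the falls in -KTS KO endothelial cells were led by Etv2, an ETS factor needed to form the first endothelial and blood cells of the embryo. Etv2 was at 59.7 and 33.1 CPM in the XX WT libraries and 62.2 and 70.5 in the XY WT libraries, at 0, 0, 0.808 and 1.99 in the -KTS KO libraries, and at 18.2, 0, 16.4 and 0.40 in the +KTS KO libraries. The -KTS KO libraries lay below every WT library (adjusted p = 0.00933), and replicates 1 and 2 of both +KTS KO groups lay far apart (adjusted p = 0.107 against WT). It was detected in 8.85% of WT, 0.680% of -KTS KO and 1.62% of +KTS KO endothelial cells after thinning (15.5%, 1.55% and 2.58% before), against 0.992%, 0.0978% and 0.224% of marker-free cells. In the other kept cells Etv2 was at 19.4 CPM in WT and 0.492 in -KTS KO, so the other cells showed lower values too. Igfbp7, a secreted protein of vessel walls, was at 103, 49.7, 75.6 and 79.3 CPM in WT, 4.63, 6.53, 8.49 and 0.497 in -KTS KO and 102, 57.6, 239 and 49.0 in +KTS KO (log2 fold change against WT -3.88 ± 0.59, adjusted p = 0.00384). Across the fits without 1 library Igfbp7 ranged from -5.49 to -3.47 in log2 fold change. It too was low in the other -KTS KO cells, at 1.55 CPM against 33.1 in WT. Hapln1, a link protein that ties hyaluronan to proteoglycans, was at 211, 135, 74.5 and 92.7 CPM in WT and 21.6, 20.2, 27.1 and 24.9 in -KTS KO (-2.36 ± 0.20, adjusted p = 6.18e-05), while in the other cells it was at 13.1 and 13.2 CPM.

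Ass1, the enzyme that makes the arginine precursor argininosuccinate, was at 22.1, 21.3, 23.8 and 19.8 CPM in WT and 3.08, 4.75, 6.87 and 0 in -KTS KO (-2.51 ± 0.39, adjusted p = 0.00393). Without XY -KTS KO replicate 1, which leaves 1 XY -KTS KO library and that at 0, its fitted log2 fold change was -5.92. After thinning Ass1 was detected in 10.7% of WT and 2.04% of -KTS KO endothelial cells, against 6.59% and 2.54% of marker-free cells, so its -KTS KO share was no higher than theirs. In the other kept cells it was at 17.6 and 13.8 CPM. Gm13889 fell from 53.7 ± 22.3 to 17.95 ± 5.59 CPM, the phospholipid-binding protein Anxa1 from 27.1 ± 6.50 to 8.68 ± 4.50, the scaffold Ahnak from 52.3 ± 24.1 to 16.5 ± 5.45 and the tubulin-binding protein Stmn2 from 136 ± 39.1 to 45.0 ± 24.5. Fam81a fell from 22.2 ± 4.22 to 9.72 ± 6.82 CPM. Fzd10os fell from 20.4 ± 3.27 to 7.13 ± 1.63 CPM together with the Wnt receptor gene Fzd10, from 12.4 ± 4.84 to 1.25 ± 0.514 CPM. Ahnak was lower in the other -KTS KO cells too, at 13.2 CPM against 28.5 in WT. The pair of Fzd10 and Fzd10os lies 151 bases apart on opposite strands of chromosome 5 and does not overlap. The calls of Fam81a and Stmn2 ended in 7 of 8 fits without 1 library (highest adjusted p = 0.157 and 0.178), and without XY -KTS KO replicate 1 their log2 fold changes went from -1.39 to -2.49 and from -1.59 to -2.58. That of Ahnak ended in 4 (0.0846). The call of Anxa1 ended without XX WT replicate 1, XY WT replicate 1 or XX -KTS KO replicate 2 (highest adjusted p = 0.0846) and that of Gm13889 without XX -KTS KO replicate 2 (0.0512).

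Of 34 genes of endothelial identity, 2 were higher and 2 lower in -KTS KO, against 2.05% and 1.62% of all genes tested, which are also the shares to read the counts of the lists below against. All the gene lists were chosen with earlier results of these data known, so their counts here and below are descriptions and no test of a list. Called rises were also more often at or above the level of the other cells than tested genes were. The other 30 identity genes were not called, and the median log2 fold change of the 34 was 0.08 against -0.02 over all genes tested. Gpihbp1, which carries lipoprotein lipase to the capillary surface, was at 104, 69.0, 60.2 and 70.5 CPM in WT and 151, 228, 175 and 189 in -KTS KO (1.31 ± 0.19, adjusted p = 0.00275). Sox7, a SoxF factor of endothelial cells, rose from 36.8 ± 4.82 to 67.3 ± 6.91 CPM (0.87 ± 0.14, adjusted p = 0.00418). Tal1, a factor shared by blood and endothelial development, was at 32.9, 30.2, 21.2 and 25.3 CPM in WT, 13.4, 8.91, 10.1 and 10.9 in -KTS KO and 13.9, 11.3, 16.1 and 13.6 in +KTS KO. It was called lower in both mutants (-1.31 ± 0.17, adjusted p = 0.00149, and -0.98 ± 0.15, adjusted p = 0.0246), and all mutant libraries lay below all WT libraries. In the other kept cells Tal1 was at 1.85, 0.825 and 2.48 CPM in WT, -KTS KO and +KTS KO. The angiopoietin receptor Tek fell from 43.5 ± 10.0 to 26.6 ± 2.47 CPM in -KTS KO (-0.68 ± 0.14, adjusted p = 0.0155), a call that ended in 5 of 8 fits without 1 library (highest adjusted p = 0.0684). Tal1 in +KTS KO ended in 6 of 8 (0.108). Beside Tal1, the erythroid list had 0 of 8 genes called in either mutant. Its medians were -1.34 in -KTS KO and -1.13 in +KTS KO, with 0 and 1 of 8 fold changes above 0. Single cells weigh on this list, and in XX WT replicate 1, 1 cell held 3111 of 3279 Hba-a1 UMIs. The part of erythroid RNA in the level of Tal1 was not tested.

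Of the 15 arterial genes tested in -KTS KO against WT, 7 rose, 0 fell against 2.05% and 1.62% of all genes tested, and the median log2 fold change was 0.62 (all genes -0.02). The 7 were Cxcr4, Gja4, Gja5, Dll4, Hey1, Unc5b and Vegfc. Cxcr4, the signalling receptor for Cxcl12, was at 9.41, 6.86, 5.20 and 8.81 CPM in WT and 28.8, 32.1, 16.6 and 50.7 in -KTS KO (2.09 ± 0.30, adjusted p = 0.00275). The gap junction protein Gja4 was at 146, 172, 106 and 166 CPM in WT and 342, 627, 457 and 263 in -KTS KO (1.505 ± 0.26, adjusted p = 0.007). The Notch ligand Dll4 was at 35.9, 24.2, 28.2 and 38.8 CPM in WT and 67.3, 69.5, 50.9 and 107 in -KTS KO (1.22 ± 0.21, adjusted p = 0.007). For all 3 genes every -KTS KO library lay above every WT library, and the +KTS KO means of 15.4, 231 and 42.6 CPM lay in between and were not called. The netrin receptor Unc5b rose from 47.7 ± 11.6 to 101 ± 26.8 CPM (1.07 ± 0.20, adjusted p = 0.0115), a call that ended without XX WT replicate 2 or XX -KTS KO replicate 2 (highest adjusted p = 0.0684). Gja5, a gap junction protein of arteries named here after its values were seen, was at 5.65, 32.1, 2.02 and 15.9 CPM in -KTS KO and at most 3.09 in WT (adjusted p = 0.0235), so its libraries overlapped. The summed level of the arterial list was 786, 790, 645 and 818 CPM in WT, 1232, 1590, 1219 and 1268 in -KTS KO and 1055, 1354, 679 and 898 in +KTS KO.

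The Notch list shares members with the arterial list. Of 13 tested, 3 rose in -KTS KO and 0 fell, with a median of 0.11 (all genes -0.02). They were Dll4 and the targets Hey1 and Nrarp. Hey1 was at 35.9, 31.7, 35.1 and 45.5 CPM in WT, 67.3, 69.5, 89.7 and 94.0 in -KTS KO and 83.5, 132, 29.3 and 63.8 in +KTS KO, so that the -KTS KO libraries lay above all WT libraries and the +KTS KO libraries overlapped them (1.11 ± 0.22, adjusted p = 0.0137, and 0.95 ± 0.21, adjusted p = 0.0736). Nrarp, a feedback inhibitor, rose from 84.3 ± 10.2 to 129 ± 15.9 CPM in -KTS KO (0.61 ± 0.13, adjusted p = 0.0189). The receptors Notch1 (69.9 and 81.5 CPM in WT and -KTS KO) and Notch4 (32.6 and 47.1) were not called. The call of Hey1 ended without XX WT replicate 2, XY WT replicate 1 or XX -KTS KO replicate 2 (highest adjusted p = 0.0672), and that of Nrarp in 6 of 8 fits without 1 library (0.103). In the other kept cells Hey1 was at 25.5 CPM in WT and 27.0 in -KTS KO.

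Venous genes were not called in any genotype comparison (0 of 6 tested), which with 3.67% of all genes called in -KTS KO against WT is no result about a list of this size. Their median in -KTS KO against WT was -0.20. The venous factor Nr2f2 was at 46.7 ± 5.12 CPM in WT and 31.6 ± 12.9 in -KTS KO (adjusted p = 0.228), the Efnb2 receptor Ephb4 at 36.7 ± 9.86 and 36.9 ± 5.88, and the apelin receptor Aplnr at 112 ± 31.6 and 79.4 ± 9.58 (adjusted p = 0.0972). Nr2f2 was higher in the other kept cells (70.1 and 111 CPM) than in the endothelial cells.

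Genes of lymphatic and sinusoidal vessels included 3 that rose of 7 tested, with a median log2 fold change of 1.23 (all genes -0.02). Stab2, a scavenger receptor that clears hyaluronan in sinusoids, was at 7.35, 9.09, 4.09 and 5.24 CPM in WT, 19.5, 13.7, 25.1 and 23.9 in -KTS KO and 3.29, 3.22, 2.05 and 6.80 in +KTS KO (1.70 ± 0.27, adjusted p = 0.00418). Reln, a secreted matrix protein of lymphatic vessels, rose from 1.79 ± 0.746 to 8.72 ± 3.89 CPM, and Mmrn1, a multimerin of vessel walls and platelets, from 18.2 ± 1.71 to 43.0 ± 13.7. Prox1, the factor that defines lymphatic endothelium, stayed at 0.514 to 1.78 CPM in -KTS KO and 1.49 to 2.57 in WT. Lyve1, a hyaluronan receptor of lymphatic and sinusoidal cells, was not called (adjusted p = 0.0528). It had UMIs in 2 of 896 WT, 26 of 322 -KTS KO and 10 of 698 +KTS KO cells, and after thinning in 0 of 870 WT cells, which allows a share of cells with a UMI of up to 0.345% at this depth, by counting error only, in 2.38% of -KTS KO and in 0.886% of +KTS KO cells, against at most 0.0571% of marker-free cells. Of its 76 UMIs in -KTS KO, 56 came from XY -KTS KO replicate 2. The calls of Reln and Mmrn1 ended in 4 and 5 of 8 fits without 1 library (highest adjusted p = 0.0718 and 0.101).

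Among tip cell genes, 3 rose and 1 fell of 11 tested (median 0.54, all genes -0.02). Besides Plaur and Igfbp3, the potassium channel subunit Kcne3 was at 113, 108, 174 and 241 CPM in WT, 294, 280, 565 and 773 in -KTS KO and 446, 212, 249 and 286 in +KTS KO (1.54 ± 0.21, adjusted p = 0.00151, and 0.98 ± 0.20, adjusted p = 0.0588). Every -KTS KO library was above every WT library. Ramp3, the co-receptor through which Calcrl binds adrenomedullin, was at 64.1, 52.7, 34.5 and 38.4 CPM in WT, 19.02, 13.7, 23.8 and 20.9 in -KTS KO and 63.7, 46.0, 53.0 and 64.6 in +KTS KO (-1.26 ± 0.17, adjusted p = 0.00151). Its direction was opposite to that of the other called members. Esm1 (48.5 ± 27.0 and 80.0 ± 23.6 CPM), Pdgfb (62.8 ± 12.3 and 83.4 ± 21.001) and Apln (16.4 ± 4.71 and 20.9 ± 12.05), which also mark tip cells, were not called in -KTS KO against WT. The summed level of the tip cell list was 846 to 1190 CPM in WT, 1546 to 3447 in -KTS KO and 1071 to 1551 in +KTS KO.

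Receptors and ligands of the VEGF, angiopoietin and apelin pathways held 2 called genes. Of 17 tested, the ligand Vegfc rose from 23.5 ± 7.72 to 50.6 ± 6.46 CPM (1.13 ± 0.25, adjusted p = 0.023, ended in 6 of 8 fits without 1 library with a highest adjusted p of 0.0948), Tek fell, and the median was -0.01. Of 15 BMP and TGF-beta genes and 18 genes of the vascular basement membrane and its integrins, 0 were called, with medians of 0.05 and 0.07. Of 6 genes that answer blood flow, the anticoagulant receptor Thbd was called, falling from 18.4 ± 2.29 to 7.02 ± 1.97 CPM (-1.36 ± 0.25, adjusted p = 0.00867), with 2.71 and 1.45 CPM in other cells. The flow-induced factor Klf2 was at 329, 355, 208 and 213 CPM in WT and 460, 223, 375 and 120 in -KTS KO, a spread wider than the difference of means. Of 10 genes of leukocyte adhesion, MHC and interferon response, 0 were called.

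Of 10 nutrient transport genes, 3 rose and 1 fell in -KTS KO (median 0.33, all genes -0.02), and the 3 were Gpihbp1 and the fatty acid binding proteins Fabp4 and Fabp5. Fabp4 was at 316, 195, 251 and 340 CPM in WT, 915, 1287, 1169 and 495 in -KTS KO and 185, 302, 82.0 and 156 in +KTS KO (1.80 ± 0.29, adjusted p = 0.0045). It was close to absent from the other kept cells, at 0.962 and 1.62 CPM in WT and -KTS KO. Fabp5 was at 712, 679, 1102 and 1021 CPM in WT and 1634, 2300, 2445 and 1437 in -KTS KO (1.18 ± 0.21, adjusted p = 0.00819), and its call ended without XX -KTS KO replicate 2 (adjusted p = 0.0575). In both genes the -KTS KO libraries lay above all WT libraries. Slc7a5, a transporter of large amino acids, fell from 15.6 ± 1.98 to 3.13 ± 1.72 CPM (-2.33 ± 0.42, adjusted p = 0.00832), below its level in the other cells in each genotype (19.99 and 10.9 CPM in WT and -KTS KO).

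**Figure D4:**
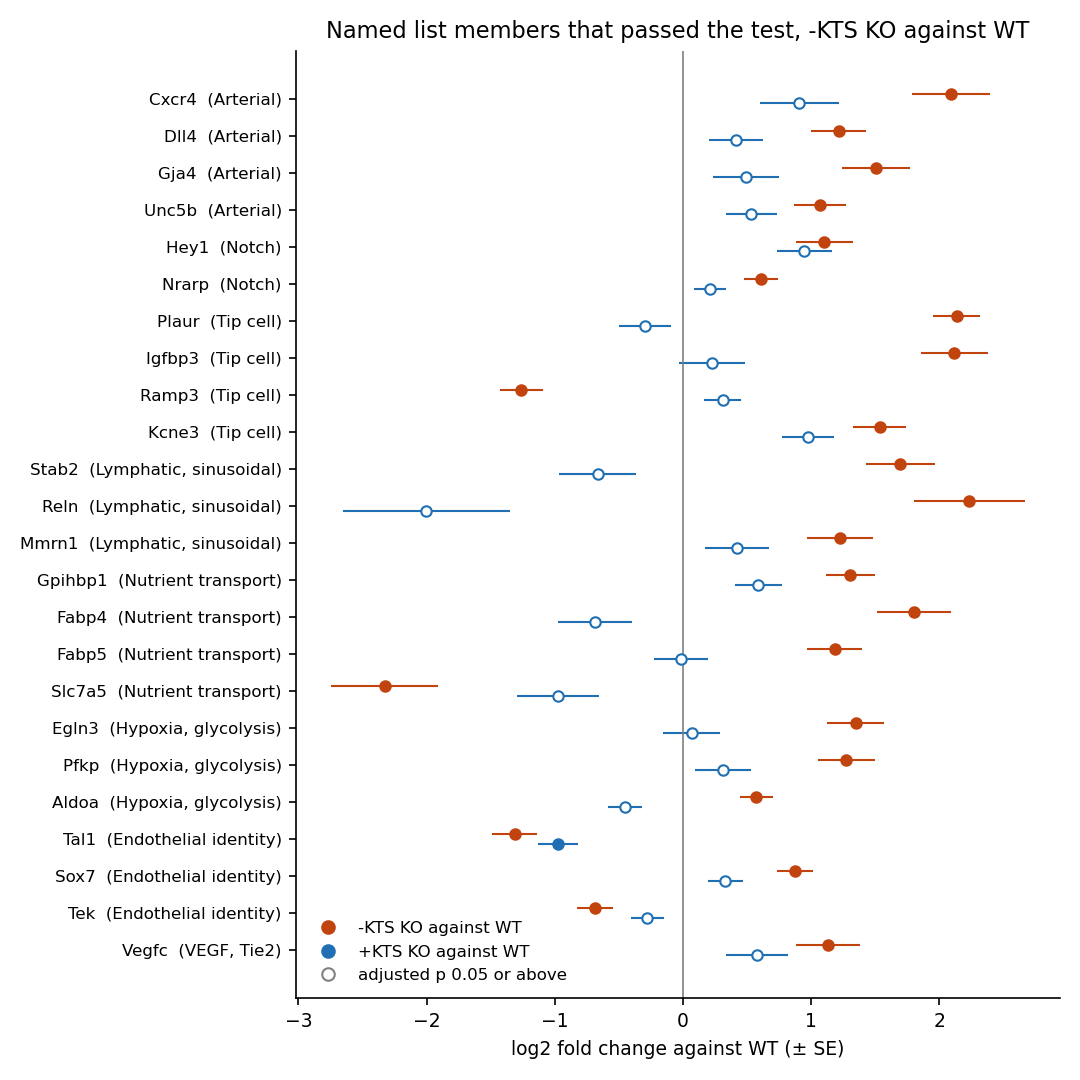
Log2 fold change against WT with its SE (x axis) of members of 8 endothelial gene lists called in -KTS KO against WT (y axis, list in brackets, up to 4 per list with the smallest p, each gene once), in -KTS KO and in +KTS KO, where open points have an adjusted p of 0.05 or above. The -KTS KO values shown run from -2.33 for Slc7a5 to 2.24 for Reln, and Tal1 is the 1 gene shown that was called in +KTS KO.

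Of 28 cell cycle genes tested, the helicase subunit Mcm5 fell in -KTS KO (54.9 ± 8.91 to 34.6 ± 6.59 CPM, adjusted p = 0.0421), with 66.9 and 45.7 CPM in the other kept cells, 27 were not called and the median was -0.21. A call in 1 of 28 is near the 3.67% over all genes. That call ended in 6 of 8 fits without 1 library (highest adjusted p = 0.188). Mki67, a marker of cycling cells, was at 121 ± 4.84 CPM in WT, 84.9 ± 24.6 in -KTS KO and 84.8 ± 19.2 in +KTS KO (adjusted p = 0.146 and 0.203). Of 7 cell cycle inhibitors and D cyclins, 0 were called.

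Of 14 genes of hypoxia and glycolysis, 3 rose in -KTS KO and 0 fell (median 0.54, all genes -0.02). Egln3, a hydroxylase of the hypoxia-inducible factors, was at 10.0, 10.8, 10.4 and 11.9 CPM in WT and 20.6, 22.0, 32.7 and 38.8 in -KTS KO (1.35 ± 0.22, adjusted p = 0.00506). Pfkp, a phosphofructokinase, rose from 12.6 ± 2.91 to 31.7 ± 14.1 CPM (1.27 ± 0.22, adjusted p = 0.00682). Aldoa rose less, and its call ended in 8 of 8 fits without 1 library (highest adjusted p = 0.161). The summed level of this list was 2499 to 3611 CPM in WT, 2940 to 4976 in -KTS KO and 1723 to 2497 in +KTS KO endothelial cells, and in the other kept cells it was 2514 to 3647, 2404 to 4217 and 1612 to 2837. The part of a level shared with the other cells in these values was not tested.

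Of 16 immediate early and heat shock genes, whose RNA also answers dissociation, 4 rose in -KTS KO and 0 fell (median 0.40, all genes -0.02). Ier3 was at 14.7, 26.9, 50.5 and 55.3 CPM in WT and 57.0, 67.1, 72.7 and 95.4 in -KTS KO (1.10 ± 0.19, adjusted p = 0.00582), a call that ended with genotype and sex as additive factors (adjusted p = 0.0588). Its means in the other kept cells were 18.2 and 24.5 CPM. The AP-1 subunit Jund rose from 268 ± 24.8 to 420 ± 18.5 CPM (0.65 ± 0.13, adjusted p = 0.0148), while it was higher still in the other kept cells (424 and 574 CPM). The phosphatase Dusp1 rose from 59.8 ± 10.0 to 85.3 ± 4.86 CPM (22.7 and 35.8 in the other kept cells) and the factor Klf6 from 55.0 ± 4.06 to 88.0 ± 17.6, and both calls ended in 7 of 8 fits without 1 library (highest adjusted p = 0.156 and 0.154). That of Jund ended without XX WT replicate 2, XY WT replicate 2 or XX -KTS KO replicate 2 (highest adjusted p = 0.0857). The summed level of this list was 951 to 1111 CPM in WT, 1252 to 1456 in -KTS KO and 1069 to 1758 in +KTS KO endothelial cells, with 939 to 1314, 1098 to 1368 and 1229 to 3069 in the other cells.

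Markers of other cell types in the endothelial sums were followed beside these changes. The gonadal somatic list (14 genes) summed to 213 to 364 CPM in WT, 112 to 219 in -KTS KO and 109 to 393 in +KTS KO endothelial cells, with Nr5a1, Aard and Wnt6 lower in -KTS KO, against 1175 to 1808, 795 to 1203 and 1263 to 1460 CPM in the other cells. The interstitial list (9 genes, 8 tested) summed to 66.5 to 211 CPM in WT and 118 to 254 in -KTS KO, with Col1a1 and Ptn higher, and their part in the endothelial results was not tested. The perivascular list (8 genes, 4 tested) summed to 14.4 to 19.3 CPM in WT and 32.9 to 139 in -KTS KO, where its 2 called members were Kcnj8 and Abcc9. Of the erythroid, immune, megakaryocyte, germ and mesonephric duct lists, 8, 2, 4, 2 and 1 genes were tested and 0 were called. With 3.67% of all genes called in -KTS KO against WT, this is no result about these lists. The germ list also holds the 4 genes that the cell rule keeps low and that got no test. The immune list (9 genes) summed to 11.2 to 19.1 CPM in WT, 13.1 to 58.6 in -KTS KO and 13.2 to 25.2 in +KTS KO endothelial cells. In the other cells it summed to 12.2 to 20.9, 28.4 to 46.1 and 24.2 to 46.4 CPM. Its 2 tested genes had log2 fold changes above 0 in both mutants (medians 1.39 in -KTS KO and 1.70 in +KTS KO). Its member Ptprc was at 0 CPM in 11 of the 12 libraries. The megakaryocyte list reached 1380 CPM in XX -KTS KO replicate 1, where 1 cell held 2412 of 2434 Pf4 UMIs, and 276 CPM in XY WT replicate 1, where 1 cell held 1145 of 1316. Without the cells that held at least 5 UMIs of other cell types, the calls of Nrarp, Mcm5, Dusp1 and Klf6 in -KTS KO against WT ended, and the other calls that the rule names in that comparison remained. Of all 410 calls in that comparison, 266 were among the 351 calls of the fit without these cells. For genes named outside the rule, single results of that fit are not given here.

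**Figure D5:**
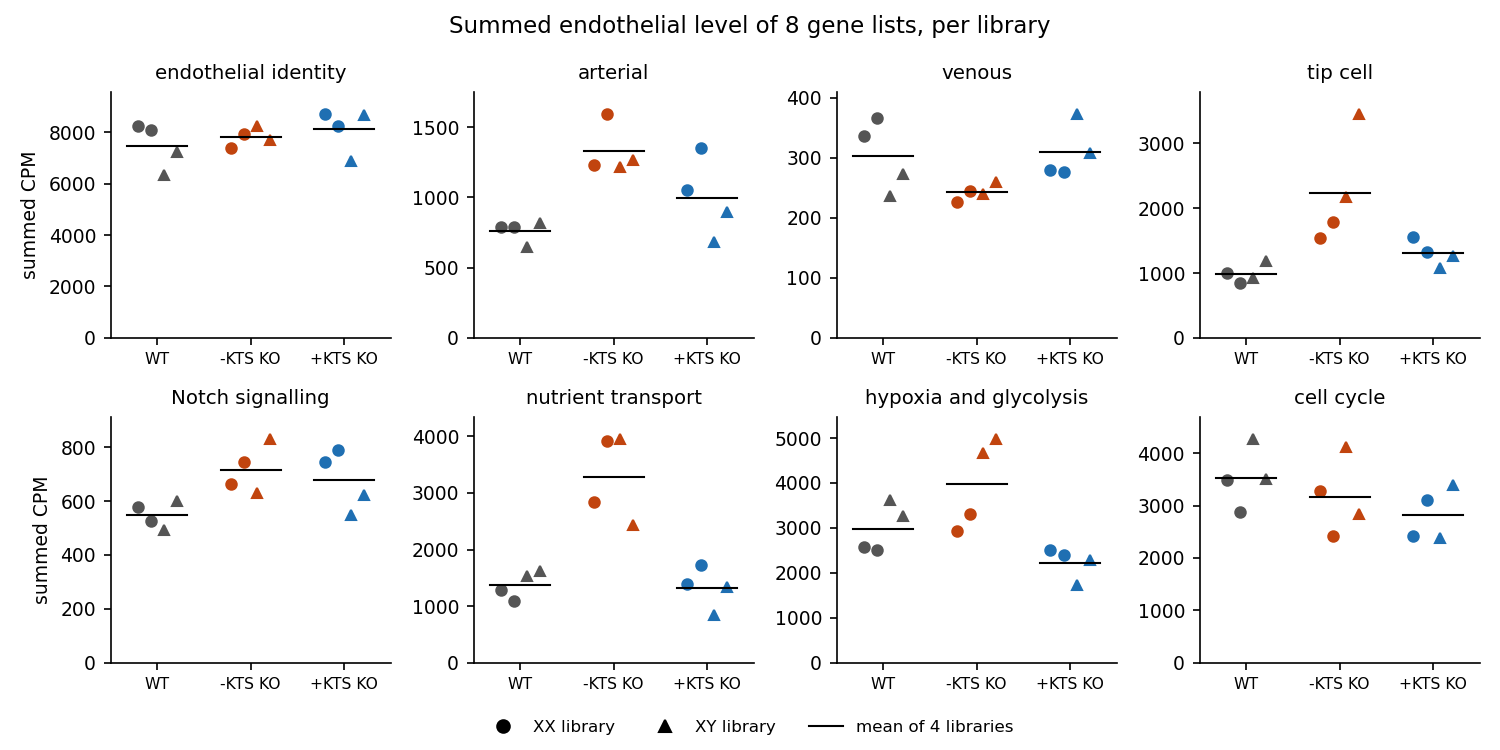
Summed CPM of 8 gene lists in the endothelial cells of each library (y axis, linear from 0), by genotype, with circles for XX, triangles for XY and lines for the means of 4. The arterial list lies at 1219 to 1590 CPM in the -KTS KO libraries and at 645 to 818 in the WT libraries, while the endothelial identity list overlaps between genotypes.

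Between +KTS KO and WT endothelial cells 39 genes were called, a count that was 152 without doublets, 108 with DESeq2, 93 with the replicate block and, without 1 library, from 2 (XY WT replicate 1 left out) to 180 (XY +KTS KO replicate 1 left out). By the rule, 4 rises and 4 falls are named. Pxdc1 was at 10.0, 5.66, 8.17 and 8.10 CPM in WT, 44.6, 28.6, 27.2 and 39.4 in +KTS KO and 15.9, 23.2, 30.3 and 44.7 in -KTS KO, so that all mutant libraries lay above all WT libraries (2.17 ± 0.23, adjusted p = 0.00331, and 1.78 ± 0.25, adjusted p = 0.00225). It was detected in 5.29% of WT, 9.86% of -KTS KO and 15.2% of +KTS KO cells after thinning (14.8%, 42.2% and 48.9% before), against 0.396%, 1.66% and 1.20% of marker-free cells. Nrros, which holds latent TGF-beta at the cell surface, rose from 33.3 ± 12.6 to 68.3 ± 16.7 CPM (adjusted p = 0.0468), the vesicle GTPase Rab3a from 12.1 ± 2.07 to 22.8 ± 6.69 (0.0471) and Mxd4, a partner of Max, from 58.4 ± 11.98 to 91.9 ± 6.77 (0.0468). Creg1, a secreted glycoprotein, was at 165, 136, 145 and 128 CPM in WT, 81.8, 99.8, 87.8 and 73.0 in +KTS KO and 193, 215, 177 and 202 in -KTS KO (-0.75 ± 0.13, adjusted p = 0.0383). It was low in +KTS KO and high in -KTS KO, without overlap between these 2 genotypes (1.20 ± 0.13 between the mutants, adjusted p = 3.44e-04). The other kept cells were at 148 CPM in -KTS KO, 79.5 in WT and 77.3 in +KTS KO. After thinning Creg1 was detected in 58.5%, 45.1% and 31.5% of endothelial cells in that order, against 49.3%, 32.3% and 29.8% of marker-free cells. The means in the other kept cells of WT and +KTS KO were 8.45 and 12.1 CPM for Rab3a and 50.99 and 63.7 for Mxd4, higher by value in +KTS KO as in the endothelial cells. Gimap5, a GTPase of immune and endothelial cells, fell from 56.3 ± 9.97 to 31.6 ± 5.77 CPM (adjusted p = 0.0468) and Ctla2b from 51.0 ± 9.71 to 29.1 ± 3.54 (0.0471). Ctla2b has a close paralog, Ctla2a, and reads shared between them make its level uncertain. The fitted ratios to WT of Nrros, Rab3a and Gimap5 were 2.16, 1.87 and 0.571 in +KTS KO. In -KTS KO they were 2.56, 2.33 and 0.530, so these changes were not particular to +KTS KO. Those of Mxd4 and Ctla2b were 1.59 and 0.575 in +KTS KO but 0.777 and 1.08 in -KTS KO.

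Apart from Pxdc1, whose call remained in all 8 fits without 1 library (highest adjusted p = 0.0381), the named calls of +KTS KO against WT each depended on several libraries. Those of Creg1, Ctla2b, Gimap5, Mxd4 and Tal1 ended in 6 of 8 fits, and those of Nrros and Rab3a in 7, with adjusted p of up to 0.249. Without the cells that held at least 5 UMIs of other cell types, the calls of Mxd4, Gimap5, Ctla2b and Creg1 ended as well (adjusted p = 0.127, 0.0807, 0.244 and 0.0855). Of the gene lists, Tal1 was the 1 member called in +KTS KO against WT. The arterial list had 0 of 15 called with a median of 0.47 (all genes 0.02) and 15 of 15 fold changes above 0, the Notch list 0 of 13 with a median of 0.42, the cell cycle list 0 of 28 with a median of -0.28 and the nutrient transport list 0 of 10 with a median of -0.37. With 0.349% of all genes called in this comparison, counts of 0 in lists of this size are no result about them. The erythroid list summed to 105 to 7610.5 CPM in +KTS KO, 82.0 to 2468 in -KTS KO and 604 to 6839 in WT endothelial cells. In the highest library of each genotype, 1 cell held much of the Hba-a1 RNA. This was 1935 of 3259 UMIs in XX +KTS KO replicate 1, 439 of 470 in XX -KTS KO replicate 2 and 3111 of 3279 in XX WT replicate 1.

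In the direct test of -KTS KO against +KTS KO, the 10 rises that the rule names, each with at least 20 CPM in -KTS KO, were Nts (5.02 ± 0.30, adjusted p = 2.51e-06), Tnfrsf9, Kcnj8, Btnl9, Fabp4, Plaur, Stab2, Ackr3, Plau and Gipc2. The 10 falls it names, with at least 20 CPM in +KTS KO, were Igfbp7 (-4.37 ± 0.59, adjusted p = 0.00128), Fzd10, Eif3j2, Cd300lg, AU021092, Fzd10os, Tbx1, Stmn2, Gchfr and Ahnak. Larger changes at lower levels, such as that of Reln (4.24), lie outside that limit. Without XY -KTS KO replicate 1 the log2 fold changes of AU021092 and Stmn2 went from -2.83 to -6.03 and from -1.87 to -2.84, and the call of Stmn2 ended without XX -KTS KO replicate 1 or 2 (highest adjusted p = 0.0949). Fzd10 was at 1.03, 1.19, 0.808 and 1.99 CPM in -KTS KO and 26.0, 13.8, 24.6 and 19.99 in +KTS KO (-4.09 ± 0.41, adjusted p = 2.00e-04). Cd300lg, a surface protein of capillaries, was at 3.17 ± 2.20 CPM in -KTS KO, 14.5 ± 5.11 in WT and 25.1 ± 6.80 in +KTS KO. Tbx1, a T-box factor, was at 7.06 ± 2.27, 13.6 ± 3.26 and 25.2 ± 5.13 CPM in the same order, and Gchfr, a regulator of tetrahydrobiopterin synthesis, at 35.0 ± 6.13, 68.6 ± 26.3 and 118 ± 21.7. The level of Gchfr in the other kept cells was in the same order (1.09, 6.39 and 41.8 CPM), and that of Tbx1 there was 0.650 to 1.18 CPM. For Tbx1 and Gchfr, WT lay between the mutants and was called against neither. Eif3j2 was at 20.3, 2.23, 3.71 and 18.8 CPM in the WT libraries, 3.98 ± 1.22 in -KTS KO and 42.3 ± 4.70 in +KTS KO, with nearly the same means in the other kept cells (9.79, 3.71 and 40.1), and its near-identical paralog Eif3j1 makes the counts uncertain.

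In -KTS KO against +KTS KO, 3 of 15 arterial genes (Cxcr4, Gja4 and Dll4) and 6 of 14 hypoxia and glycolysis genes were higher, against 2.20% of all genes tested, with medians of 0.23 and 0.53 (all genes -0.03). Ldha, lactate dehydrogenase, was at 1322 ± 392 CPM in -KTS KO and 692 ± 115 in +KTS KO (0.89 ± 0.14, adjusted p = 0.00287), with 1091 ± 234 in WT. Its means in the other kept cells were 783, 470 and 733 CPM in that order. Of the 34 genes of the endothelial identity list, 4 were higher and 4 lower, against 2.20% and 2.57% of all genes tested, among them Eng, the endoglin co-receptor of BMP signalling, at 175, 131, 106 and 96.4 CPM in -KTS KO and 269, 230.5, 254 and 229 in +KTS KO (-0.98 ± 0.15, adjusted p = 0.00277). All +KTS KO libraries lay above all -KTS KO libraries, and WT, at 184 ± 50.7, was called against neither. The TGF-beta inhibitor Smad7 was at 40.1 ± 17.1 and 95.2 ± 16.4 CPM, and the Notch-modifying enzyme Lfng at 6.48 ± 1.63 and 17.6 ± 3.18, lower in -KTS KO in both cases (adjusted p = 0.00447 and 0.00292). Both were also lower by value in the other kept cells of -KTS KO, at 54.0 against 111 CPM for Smad7 and 0.278 against 6.69 for Lfng, and the part of this in the endothelial values was not tested. The calls of Cxcr4, Dll4 and Gpihbp1 ended in 6 of 8 fits without 1 library and that of Gja4 in 4 (highest adjusted p = 0.195), and without XY -KTS KO replicate 2 the log2 fold changes of Cxcr4 and Dll4 went from 1.18 to 0.70 and from 0.80 to 0.51.

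Few autosomal genes were called between XX and XY WT endothelial cells, with 2 libraries against 2. Of 10763 tested with edgeR, 5 were higher in XX (0.0465%) and 20 in XY (0.186%) at a false discovery rate of 0.05. At an unadjusted p under 0.05 in the same test there were 750 genes. The calls therefore do not measure how far the sexes differed. The 5 genes higher in XX were all above their level in the other kept cells, and of the 20 higher in XY, 0 were. The latter included Sertoli cell genes such as Aard, at 0.882 and 3.95 CPM in XX and 117 and 68.4 in XY endothelial cells, and Cst9, at 0.882 and 1.03 against 66.5 and 69.6. In the other kept cells of WT these were at 196 and 147 CPM. The rule names Pde2a, a phosphodiesterase of cyclic nucleotides, at 70.006 and 66.7 CPM in XX WT and 25.8 and 38.1 in XY WT (1.10 ± 0.19, adjusted p = 0.0357). The other 4, named here after their values were seen, were Car8 (14.1 and 17.2 against 0.743 and 1.91 CPM), Nxpe4 (14.7 and 7.38 against 0.371 and 0.715), Dach1 (8.53 and 10.6 against 1.86 and 2.38) and Pde7b (5.29 and 9.43 against 0.557 and 0.953). In all 5, both XX WT libraries lay above both XY WT libraries. The 20 genes higher in XY did not overlap either, so this adds nothing to the calls. Without the cells that held at least 5 UMIs of other cell types, edgeR called 0 genes (684 at an unadjusted p under 0.05, and DESeq2 was not run without these cells), and Pde2a had an adjusted p of 0.0903 there, of 0.0514 without doublets, of 0.152 with library sums thinned to the shallowest and of up to 0.591 without 1 library. Its level in the mutants was 46.3, 52.9, 42.0 and 47.7 CPM in -KTS KO and 57.3, 53.1, 67.0 and 60.8 in +KTS KO. XX and XY overlapped in -KTS KO, and in +KTS KO both XX libraries lay below both XY libraries, opposite to WT.

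The response to loss of the -KTS variants was tested for a difference between the sexes, and edgeR called 0 of 11161 genes (539 at an unadjusted p under 0.05, and 4 with DESeq2). For loss of the +KTS variants, 5 genes were called (0.0448%): Cst9, Olfml3, Naaa, Arf5 and Aard. All but Arf5 were higher in the other kept WT cells than in the endothelial cells (Cst9 147 against 34.5 CPM, Olfml3 43.4 against 11.1, Naaa 81.1 against 19.6 and Aard 196 against 47.6). Arf5, a small GTPase of vesicle traffic, was at 191 and 176 CPM in XX WT, 138 and 245 in XY WT, 277 and 248 for XX +KTS KO replicates but 44.2 and 56.8 for XY +KTS KO replicates, so that the XY +KTS KO libraries lay below all others. Its mean in the other kept cells was 168 CPM in WT and 136 in +KTS KO.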

How the data were processed

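The data were 10x 3' single-cell UMI counts from 12 libraries of whole fetal gonads. Per the labels and the paper's methods, the authors made the deposited counts with Cell Ranger 6.0 on mm10, as raw UMIs per gene and barcode without normalization, and pooled embryos for -KTS KO. Chemistry is given as v2 in the labels and v3 in the methods. Endothelial cells were chosen by the rule in the report, and cells and gene lists were chosen with earlier results of these data known. UMIs were summed per library and tested with edgeR 4.0.16 (R 4.3.3), using glmQLFit on 6 groups, TMM, filterByExpr, Benjamini-Hochberg adjustment and a false discovery rate of 0.05. The 8 genes of the rule were left untested, and the sex comparison used autosomal genes. The SE was taken as |log2 fold change| over sqrt(F). Shares were compared by exact permutation (scipy 1.17.1). Doublets were the cells with the highest Scrublet scores (scanpy 1.11.5), at 0.8% per 1000 kept cells of a library. Named genes were at least 20 CPM in the higher group, at or above the other kept cells there and did not overlap between groups (the 10 largest changes in each direction), plus up to 4 called genes per list. The tests were tried on simulated counts. Alternatives were DESeq2 1.42.0, RLE scaling, no filter, a replicate block, additive sex, other cell filters and leaving out each library. The per-library sums of 1753072 to 5529955 endothelial UMIs limit low genes, and intervals cover counting error only.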

Additional observations from a re-analysis of the deposited data

Results flagged for a closer look

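In 22 of 300 groups of 4 libraries 1 library stood far from the others, where chance gives about 1 in 20. In WT these were Fzd10os at 25.3 CPM in XX replicate 1, Sox7 at 29.5 in XY replicate 1 and the megakaryocyte list at 276 in XY replicate 1. In -KTS KO, XY replicate 2 stood high for Abcc9 (68.1 CPM), Igfbp3 (1726), Plau (44.7) and Tek (30.3), and XY replicate 1 stood low for Klf6 (61.8). XX replicate 1 of -KTS KO stood high for the megakaryocyte list (1380.4) and the gonadal somatic list (219), and XX replicate 2 for the arterial list (1590.3) and the germ list (36.2). In +KTS KO, XX replicate 1 stood high for Anxa1 (31.97 CPM), Dusp1 (86.8) and the erythroid list (7610.5), and XX replicate 2 for Gipc2 (10.3). XY replicate 1 of +KTS KO stood apart for Klf6 (78.2 CPM), Ldha (519.95), Pgk1 (224), Nr4a1 (31.9), the BMP and TGF-beta list (1898) and the megakaryocyte list (25.5).

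The effect of +KTS loss differed between XX and XY in edgeR's interaction test for 5 genes, with log2 differences (XX minus XY) of 8.08 for Cst9, 4.54 for Olfml3, 2.41 for Naaa, 2.44 for Arf5 and 4.93 for Aard. All but Arf5 were below their level in the other kept WT cells.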

How the results depend on the processing

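For +KTS KO against WT the 39 calls became 108 with DESeq2, 563 without the filter on low counts, 93 with the replicate block, 25 with additive sex, 152 without doublets and 21 with library sums thinned to the shallowest (an alternative chosen after seeing the data). For XX against XY WT the 25 calls became 47 with DESeq2, 282 without the filter, 44 with the block, 11 without doublets, 0 by edgeR without mixed cells (684 at an unadjusted p under 0.05), which are the cells with at least 5 UMIs of 10 genes of other cell types, and 16 with thinned sums. For -KTS KO against WT 410 became 1062 without the filter, and for -KTS KO against +KTS KO 532 became 1166 without it and 351 without mixed cells. The sex difference of the -KTS KO effect (0 calls) became 4 with DESeq2, 1 with RLE, 165 without the filter and 4 without doublets, and that of the +KTS KO effect (5 calls) 21 with DESeq2, 188 without the filter, 2 without doublets, 1 without mixed cells and 2 with thinned sums. Leaving out 1 library gave 154 (without XX -KTS KO replicate 2) to 479 calls (without XY -KTS KO replicate 1) for -KTS KO against WT. It gave 2 (without XY WT replicate 1) to 180 (without XY +KTS KO replicate 1) for +KTS KO against WT and 201 (without XX +KTS KO replicate 1) to 961 (without XY +KTS KO replicate 2) for -KTS KO against +KTS KO. It gave 5 to 15 for XX against XY WT, 0 to 6 for the sex difference of the -KTS KO effect and 0 to 15 for that of the +KTS KO effect. The cause of these changes was not tested. Without 1 library, the share difference ranged from -1.85 to -1.42 points for -KTS KO against WT, from -0.977 to -0.490 for +KTS KO against WT, from -1.11 (p = 0.0286, exact permutation, without XY +KTS KO replicate 1) to -0.657 for -KTS KO against +KTS KO and from -0.827 to 0.445 for XX against XY WT. With each cell thinned to 5000 UMIs it was -1.21, -0.340 (exact permutation p = 0.314), -0.870 (exact permutation p = 0.0286) and 0.00480, and with germ cells out of the denominator -1.907, -1.11 (exact permutation p = 0.0571), -0.796 and -0.501, in the same order. Over 102 single-gene results, 1466 of 1729 values kept direction and call, 263 lost the call and 0 reversed. Same-numbered samples were not taken as pairs, since the labels give no shared source and 6 of 15, not all, correlations of their deviations were over 0.1 (range -0.160 to 0.206). The replicate block gave 513 calls for -KTS KO against WT, 514 for -KTS KO against +KTS KO, and 0 and 6 for the sex differences.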

Other observations

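Kitl, the ligand of the receptor Kit, rose in -KTS KO endothelial cells, from 167, 179, 118 and 145 CPM in the WT libraries to 199.9, 223, 225 and 241 in the -KTS KO libraries (log2 fold change 0.56 ± 0.13, SE, edgeR adjusted p = 0.0354). Its level in the other kept cells was 191 CPM in WT and 133 in -KTS KO. It was 1 of 11 tested vascular ligands made by other gonad cells, of which 2 rose and 1 fell with a median of -0.24. The other riser was Cxcl12, the ligand of Cxcr4 and Ackr3, at 2.39 ± 1.35 CPM in WT and 9.47 ± 2.81 in -KTS KO (SD, n = 4), below its level in the other kept cells (13.4 and 66.5). The hedgehog ligand Dhh fell from 7.87 ± 4.12 to 1.44 ± 1.03 CPM, and the part of RNA from other cells in this fall was not tested.

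In -KTS KO, 82 of the 83 cells with a UMI of Nts also had one of Igfbp3 (98.8%), against 82.8% of the cells without Nts. In WT these were 55 of 87 (63.2%) and 55.5%, and in +KTS KO 21 of 32 (65.6%) and 77.6%. These are cells of 4 libraries per genotype and were not tested.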
